A study of Mus musculus with 12 samples.

Results

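The 42 genes described here mark macrophages and dendritic cells of the colon, and they were taken by gene symbol from the 54532 rows of the deposited gene table. Each symbol was found once, and all 42 genes reached an FPKM (reads scaled by gene length and library depth) of 0.1 in 3 or more of the 12 libraries, which placed all 42 among the 24102 genes tested. The genes were contrasted as resident macrophage genes (Cd163, Timd4 and Folr2), scavenger or repair genes (Marco, Spp1 and Gpnmb among them) and dendritic cell genes (Xcr1, Clec9a and Flt3), with the other members around them.

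Whole colon RNA of 12 mice on the C57BL/6N background was sequenced, each mouse giving 1 library, and the mice formed 4 groups of 3. In Tmem173fl/fl mice both copies of Tmem173, which encodes STING, an adaptor in the sensing of cytosolic DNA, are floxed, and Tmem173iΔmye mice carry in addition Lyz2-Creert2, a Cre recombinase driven by the lysozyme gene Lyz2 and switched on by tamoxifen. Adult mice of both genotypes received 5 injections of tamoxifen, so the untreated groups share the floxed alleles and the drug with the colitic groups. The colitic groups drank dextran sodium sulfate (DSS), a chemical that damages the lining of the colon, over 7 days, and the untreated groups drank water. Lyz2 is used by macrophages, monocytes and neutrophils, so deletion is not limited to the cells that these 42 genes mark. Since the Cre driver is the Lyz2 gene, a genotype difference in Lyz2 itself cannot be told apart from an effect of the driver.

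Macrophages of the gut wall are renewed by blood monocytes and kept alive by signals through the receptor Csf1r. Resident cells carry scavenger receptors and clear dying cells, microbes and haemoglobin, whereas cells that have taken up lipid or debris in injured tissue make proteins such as Gpnmb, Spp1 and Trem2. Conventional dendritic cells depend on the receptor Flt3 and present antigen to T cells. One branch of these, defined by Xcr1, Clec9a, Batf3 and Irf8, takes up dead cells and presents their antigens to CD8+ T cells.

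Library totals ran from 13823237 to 18718915 counts, and levels are given as CPM (counts scaled to a common library size with TMM factors) unless FPKM is named. The targeted gene Tmem173 was at 37.7 to 44.0 CPM in colitic Tmem173fl/fl and 23.8 to 47.8 CPM in colitic Tmem173iΔmye libraries, a log2 difference of -0.28 with a standard error (SE) of 0.26 (edgeR adjusted p 0.602), and counts over the whole gene do not show the loss of single exons. Reads of Xist, which marks female tissue, were abundant in replicate 3 of each untreated group and, among colitic mice, in replicate 5 of Tmem173iΔmye, and reached at most 0.545 CPM in colitic Tmem173fl/fl libraries. Summed CPM of 10 pancreas genes ran from 103 to 11460 over the libraries. The 7 colon epithelium genes examined summed to 4901 to 13200 CPM, so that the labelled tissue showed its defining markers in every library. In whole tissue, fewer cells of a type and less RNA per cell cannot be told apart.

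In untreated Tmem173fl/fl colon the levels per gene length spanned a wide range. Lyz2 was highest at 143 ± 54.7 FPKM (SD, n = 3), followed by the lipid carrier Apoe at 58.0 ± 2.94 FPKM and the lipopolysaccharide receptor Cd14 at 46.7 ± 10.4 FPKM. Lyz2 ran from 111 to 206 FPKM and did not overlap with Apoe, while Apoe, at 55.1 to 61.0 FPKM, lay just above Cd14, at 34.8 to 53.3 FPKM. The complement subunits C1qa and C1qb, at 37.7 ± 4.57 and 36.9 ± 3.96 FPKM, did not differ beyond their spread. Csf1r, at 9.52 ± 1.63 FPKM, and the lysosomal protein Cd68, at 9.28 ± 2.41 FPKM, were likewise alike. The dendritic genes Clec9a, Xcr1 and Flt3 were lower, at 0.688 ± 0.232, 0.602 ± 0.0888 and 0.340 ± 0.0482 FPKM. Not all dendritic genes were low, with Irf8 at 23.4 ± 2.40 and Itgax at 5.40 ± 1.28 FPKM. Marco had 0 counts in all 3 libraries, which allows up to 0.227 CPM in the shallowest of them. With DSS the order changed, and Apoe led at 466 ± 95.5 FPKM while Xcr1, at 0.169 ± 0.0302 FPKM, had the lowest mean and overlapped with Cd209a, at 0.271 ± 0.127 FPKM.

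The first comparison asks how colitis changes these genes when STING is intact. Most macrophage genes rose in colitic Tmem173fl/fl mice, led by Marco, Cd163, the lectin Clec10a and Gpnmb. The dendritic cell receptor Xcr1 was the only member called lower. In all, 29 of the 42 genes were called higher and 1 was called lower, a call meaning that edgeR's quasi-likelihood test gave an adjusted p under 0.05 with a change of 1 or more on the log2 scale. Over all 24102 genes tested, 14.9% were called higher and 7.61% lower. The median log2 fold change was 1.79 for the 42 genes, with Marco at its lower bound or as fitted, and 0.03 for all genes tested.

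Marco, a scavenger receptor for bacteria and particles, went from 0 counts in every untreated Tmem173fl/fl library to 29.9, 128 and 22.3 CPM with DSS. The mean of the colitic libraries was at least 265-fold above the floor of 3 counts per library (edgeR adjusted p 0.000295). All 3 colitic libraries lay far above the untreated ones, and replicate 2 was well above the other two.

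Cd163, the receptor that clears haemoglobin bound to haptoglobin, was at 3.94, 5.55 and 6.14 CPM without DSS and at 93.2, 129 and 105 CPM with DSS. The log2 change was 4.45 ± 0.21 (SE, edgeR adjusted p 8.58e-07), and no colitic library came near an untreated one. Of the other resident genes, Folr2, a folate receptor, went from 0.454, 0.880 and 0.376 CPM to 1.79, 1.33 and 1.97 CPM, a log2 change of 1.63 ± 0.45 (SE, edgeR adjusted p 0.0178). The call on Folr2 was lost without replicate 1 or 3 of the untreated group (adjusted p 0.0516 and 0.0616) or replicate 1 of the colitic group (0.0618), and 63.1% of its exonic bases are shared with Gm10602 on the opposite strand. Timd4, a receptor for dying cells, was at 0.909, 0.406 and 1.32 CPM without and 1.46, 3.46 and 1.5 CPM with DSS and did not pass (log2 change 1.35 ± 0.52, adjusted p 0.0706). Thus 2 of the 3 resident genes rose, and the third was higher in each colitic library than in any untreated one without passing.

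The scavenger or repair genes Gpnmb and Spp1 rose as Marco did. Gpnmb, a membrane glycoprotein of lysosome-rich macrophages, went from 5.83, 2.84 and 6.33 CPM to 56.2, 88.3 and 47.7 CPM (log2 change 3.75 ± 0.33, edgeR adjusted p 2.45e-05). Spp1, the secreted protein osteopontin, went from 3.11, 0.948 and 3.07 CPM to 23.6, 8.47 and 17.4 CPM (2.86 ± 0.47, adjusted p 0.00115). In both the lowest colitic library was above the highest untreated one. Spp1 is also made by cells other than macrophages.

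Of the 6 receptors for uptake 5 rose. Mrc1, the mannose receptor, was at 22, 18.3 and 30.7 CPM without and 212, 234 and 195 CPM with DSS, a log2 change of 3.24 ± 0.21 (edgeR adjusted p 3.89e-06). Stab1, a scavenger receptor also found on endothelium, changed by 2.79 ± 0.18 (adjusted p 3.48e-06), and Msr1, Vsig4 and Cd14 by 2.15, 2.23 and 1.17. The call on Cd14 was lost without replicate 2 of the untreated group, where its change was 0.99. Mertk, a kinase receptor for dying cells, was short of the fold needed, at 0.52 ± 0.12 (adjusted p 0.00725). The 3 subunits of complement C1q rose by 1.65 to 1.96 on the log2 scale. Apoe was at 121, 134 and 127 CPM without and 852, 1224 and 885 CPM with DSS (3.03 ± 0.19, adjusted p 2.82e-06).

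Of the 6 genes for Fc receptors, Trem2 and the signalling adaptors Tyrobp and Fcer1g, 5 rose. Fcgr3, an activating receptor for IgG, went from 11.4, 7.72 and 11.6 CPM to 64.6, 89.7 and 64.8 CPM (2.90 ± 0.21, edgeR adjusted p 8.02e-06). Trem2, a receptor for lipids, went from 1.29, 1.02 and 2.25 CPM to 12.9, 10.6 and 15.6 CPM (3.15 ± 0.33, adjusted p 6.47e-05). The inhibitory receptor Fcgr2b rose by 2.0, and the signalling adaptors Tyrobp and Fcer1g by 1.82 and 1.61. Fcgr1 did not reach the fold, at 0.94 ± 0.29 (adjusted p 0.0281).

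The core macrophage genes did not move as 1 block. Csf1r, Cd68, the CD47 receptor Sirpa and Lyz2 rose by 1.77, 1.97, 2.01 and 1.25 on the log2 scale. Of the exonic bases of Csf1r, 15.1% are shared with Hmgxb3 on the opposite strand, and of Spp1, 18.8% with Gm42793, so their counts carry that uncertainty. Lyz2 was at 150.0, 152 and 277 CPM without and 477, 505 and 336 CPM with DSS (SE 0.27, edgeR adjusted p 0.00468). Adgre1, the gene of F4/80, had a log2 change of 0.93 (adjusted p 0.0119), and Aif1, a macrophage actin-binding protein, of 0.04 (adjusted p 0.946). The fractalkine receptor Cx3cr1 was at 11.7 to 20.7 CPM without and 3.95 to 12.6 CPM with DSS (-0.75 ± 0.38, adjusted p 0.157). Of the costimulatory ligands for T cells, Cd80 rose by 2.56 ± 0.37 (adjusted p 0.000459), whereas Cd86 had a change of 0.51 (adjusted p 0.117).

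Dendritic cell genes took different directions. Xcr1, the chemokine receptor of the branch that cross-presents antigen, fell from 2.88, 2.30 and 3.07 CPM to 0.650, 0.899 and 0.681 CPM, a log2 change of -1.8 ± 0.35 (edgeR adjusted p 0.00290). These values rest on few reads, 10 to 49 counts per library. Clec9a, a receptor for dead cells on the same branch, was at 2.73, 1.42 and 2.82 CPM without and 2.17, 2.70 and 1.29 CPM with DSS (-0.10 ± 0.40, adjusted p 0.877), with full overlap. Flt3 went from 2.50, 1.90 and 2.07 CPM to 8.18, 10.9 and 5.24 CPM (1.99 ± 0.32, adjusted p 0.000944). Thus of the 3 genes, 1 fell, 1 rose and 1 did not pass.

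Among the 7 other dendritic genes 3 rose. Clec10a, a lectin of macrophages as well as dendritic cells, went from 0.682, 2.91 and 3.38 CPM to 29.0, 34.5 and 27.5 CPM (3.75 ± 0.42, edgeR adjusted p 9.62e-05). Zbtb46 and Batf3, transcription factors of conventional dendritic cells, rose by 1.43 and 2.02. The integrin gene Itgax (CD11c) was at 22.7 to 34.0 CPM without and 11.4 to 20.2 CPM with DSS and passed neither the fold nor the adjusted p (-0.68 ± 0.24, adjusted p 0.0511). Irf8, a factor that B cells also use, Siglech of plasmacytoid cells and Cd209a did not pass, at -0.42, 0.62 and 0.64.

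**Figure D1:**
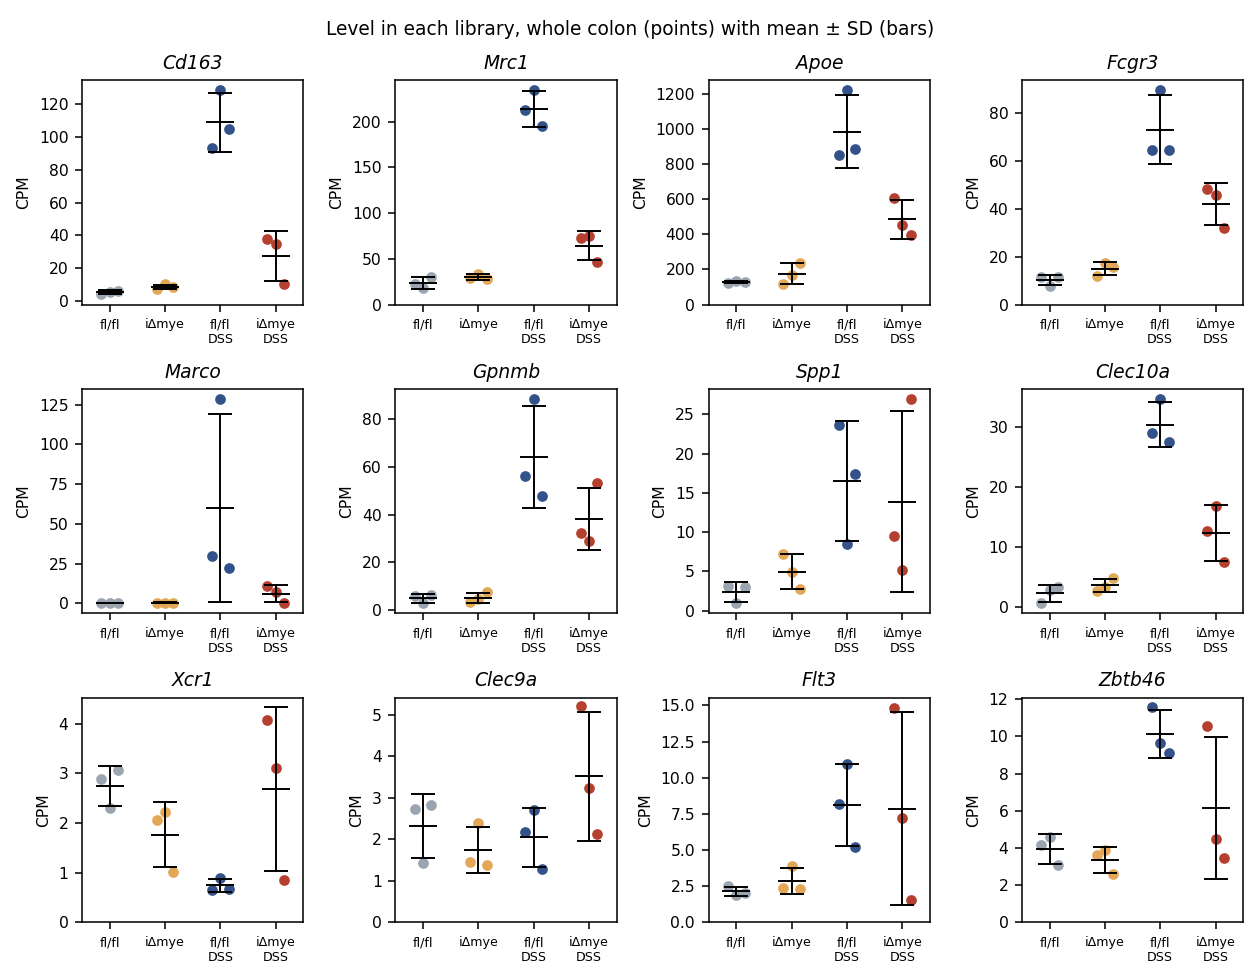
Level of 12 genes in CPM (linear axes) in untreated and colitic Tmem173fl/fl (fl/fl) and Tmem173iΔmye (iΔmye) mice. Points are libraries and bars are the mean ± SD of 3. Cd163 and Mrc1 in colitic Tmem173iΔmye libraries, at 10.1 to 37.6 and 46.2 to 74.5 CPM, lie below all colitic Tmem173fl/fl libraries, at 93.2 to 129 and 195 to 234 CPM.

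The bases before the start of 4 genes are shown because these genes carry the contrasts of the report. Cd163 and Mrc1 differed between colitic genotypes, and with DSS in Tmem173fl/fl mice Marco had the largest rise and Xcr1 was the only member called lower. The sequences are from RefSeq on GRCm38.p6, on the strand of the gene and 5′ to 3′, and end at the RefSeq start or, for Mrc1, 22 bases before it, where the deposited gene begins. Capitals mark matches to GAGGAAG, the core that the macrophage factor PU.1 binds, or to its reverse complement. Cd163 is chr6:124304401-124304650 on the plus strand, Mrc1 chr2:14229164-14229391 on the plus strand, Marco chr1:120505025-120505274 on the minus strand and Xcr1 chr9:123862030-123862279 on the minus strand.
Cd163: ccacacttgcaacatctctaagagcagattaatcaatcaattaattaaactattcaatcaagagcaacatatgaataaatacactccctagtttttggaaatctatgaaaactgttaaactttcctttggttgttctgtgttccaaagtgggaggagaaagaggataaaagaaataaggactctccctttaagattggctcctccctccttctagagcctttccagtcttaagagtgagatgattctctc
Mrc1: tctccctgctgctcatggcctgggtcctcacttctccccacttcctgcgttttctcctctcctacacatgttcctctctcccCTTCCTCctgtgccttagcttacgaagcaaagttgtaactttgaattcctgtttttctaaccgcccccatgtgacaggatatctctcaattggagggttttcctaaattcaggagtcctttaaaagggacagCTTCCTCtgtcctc
Marco: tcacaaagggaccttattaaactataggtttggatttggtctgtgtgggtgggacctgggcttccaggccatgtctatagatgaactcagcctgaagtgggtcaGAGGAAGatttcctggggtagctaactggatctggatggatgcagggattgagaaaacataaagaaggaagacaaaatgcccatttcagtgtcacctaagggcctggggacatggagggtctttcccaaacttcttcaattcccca
Xcr1: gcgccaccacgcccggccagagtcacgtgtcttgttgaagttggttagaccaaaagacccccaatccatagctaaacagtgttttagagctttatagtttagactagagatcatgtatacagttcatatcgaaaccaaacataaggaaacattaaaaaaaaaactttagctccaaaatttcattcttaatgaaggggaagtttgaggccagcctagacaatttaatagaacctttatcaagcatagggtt

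Mrc1 held 2 matches, at -168 to -162 and -36 to -30 from the RefSeq start, and Marco held 1, at -146 to -140. Cd163 and Xcr1 held none of the 4 motifs searched on both strands. Among 27025 genes with such an entry, 10.4% held GAGGAAG within 250 bases, against 8 of the 32 members that have an entry (Batf3, C1qc, Fcgr1, Fcgr3, Marco, Mrc1, Spp1 and Trem2). The C/EBP motif TTGCNNAA was in 3 of 32 members and 9.55% of all entries, the STAT motif (TTC and GAA with any 4 bases between them) in 1 of 32 and 5.87%, and the IRF motif (GAAA and GAAA with any 2 bases between them) in 2 of 32 and 3.04%. In the 4 sequences shown all matches are to GAGGAAG, so none overlaps another motif. A match describes the letters only.

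The second comparison asks the same of DSS in Tmem173iΔmye mice. Here 8 of the 42 were called higher, Lyz2, Mrc1, Gpnmb, Apoe, Fcgr2b, Fcgr3, Trem2 and Clec10a, and 0 were called lower, against 1.48% higher and 0.597% lower of all genes tested. Itgax, at -0.05, was the lowest, and the count of lower members was likewise 0 at an unadjusted p under 0.05 and by DESeq2. The median log2 change of the 42 genes was 1.06, and that of all genes tested was 0.02. The colitic Tmem173iΔmye libraries were unlike each other. Replicate 5 had the lowest level of the 3 for 34 of the 42 genes, and replicate 1 the highest for 31. Such an order was not limited to this group. Among colitic Tmem173fl/fl libraries replicate 2 was the highest for 32 genes and replicate 3 the lowest for 26.

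Gpnmb had the largest called change, from 3.40, 4.55 and 7.51 CPM to 32.3, 29.0 and 53.2 CPM (log2 change 2.88 ± 0.36, edgeR adjusted p 0.00411). Trem2 went from 2.67, 2.16 and 2.28 CPM to 6.70, 7.59 and 11.4 CPM (1.85 ± 0.34, adjusted p 0.0230). Clec10a was at 2.79, 3.35 and 4.87 CPM without and 12.7, 16.9 and 7.59 CPM with DSS (1.75 ± 0.37, adjusted p 0.0417). In these 3 genes every colitic library was above every untreated one, and replicate 5 was the highest for Gpnmb and Trem2 and the lowest for Clec10a.

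Lyz2 went from 94.4, 76.4 and 115 CPM to 319, 231 and 357 CPM (1.66 ± 0.24, edgeR adjusted p 0.00895). Fcgr3 went from 11.9, 17.4 and 15.8 CPM to 48.5, 45.9 and 31.9 CPM (1.48 ± 0.24, adjusted p 0.0155). Apoe went from 119, 169 and 239.7 CPM to 609, 454 and 396 CPM (1.46 ± 0.28, adjusted p 0.0283), and Mrc1 from 28.8, 33.7 and 27.7 CPM to 72.6, 74.5 and 46.2 CPM (1.10 ± 0.23, adjusted p 0.0366). The groups did not overlap in any of these, and the smallest gap, as a ratio, was that of Mrc1. Fcgr2b rose by 1.35 ± 0.22 (adjusted p 0.0161).

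Cd163 did not pass in the main fit of this genotype. It was called higher with no filter, by DESeq2, with the replicate block, in 1 fit of 12 libraries and with the pancreas covariate. The same held without replicate 5 of the colitic group or without the libraries with Xist reads. It was not called with DESeq2 size factors, by limma or with any other single library left out. Cd163 was at 7.04, 10.1 and 8.24 CPM without and 37.6, 34.5 and 10.1 CPM with DSS (main fit, log2 change 1.69 ± 0.43, edgeR adjusted p 0.0788), with replicate 5 at the level of the highest untreated library. Marco was at 0.425, 0.120 and 0.481 CPM without and 10.6, 7.03 and 0.304 CPM with DSS (4.09, adjusted p 0.0744), and replicate 5, with 5 counts, was within the untreated range. Timd4, at 0.971, 1.26 and 0.661 CPM without and 5.49, 1.8 and 0.425 CPM with DSS, and Folr2, at 0.971, 0.898 and 1.44 CPM without and 1.43, 0.622 and 1.34 CPM with DSS, overlapped between the groups (adjusted p 0.413 and 0.992). None of the 3 resident genes was therefore called in the main fit.

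Spp1 followed another order among the libraries. It was at 7.22, 4.97 and 2.71 CPM without and 9.55, 5.16 and 26.9 CPM with DSS (1.48 ± 0.57, edgeR adjusted p 0.241). Replicate 5, the lowest for Cd163 and Marco, was here the highest of the colitic libraries. Among dendritic cell genes, Xcr1 was at 2.06, 2.22 and 1.02 CPM without and 4.06, 3.11 and 0.850 CPM with DSS (0.59 ± 0.57, adjusted p 0.679). Clec9a, at 1.46, 2.40 and 1.38 CPM without and 5.2, 3.24 and 2.12 CPM with DSS, and Flt3, at 2.37, 3.89 and 2.34 CPM without and 14.8, 7.22 and 1.58 CPM with DSS, also overlapped (adjusted p 0.312 and 0.304).

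The count of 8 depends on single libraries. It was 0 without replicate 2 of the untreated group, 1 (Gpnmb) without replicate 1 or 3 of that group, 5 without replicate 2 of the colitic group and 20 without replicate 5 of the colitic group. The share of all genes called higher moved the same way, from 1.48% to 0.166% without replicate 2 of the untreated group, 0.212% and 0.178% without replicate 1 and 3 of it, 1.14% without replicate 2 of the colitic group and 3.95% without replicate 5 of it.

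Between the genotypes without DSS, 0 of the 42 genes were called in either direction by edgeR, as were 0% of all genes. At an unadjusted p under 0.05 there were 7 members, against 2.99% of all genes, and DESeq2 and limma called 0. Lyz2, the driver gene, was lower in Tmem173iΔmye mice in each library (log2 difference -1.01 ± 0.23, unadjusted p 0.000754, adjusted p 1). In 5 of the 42 genes, Cd163, Folr2 and Fcgr3 among them, every Tmem173iΔmye library was above every Tmem173fl/fl one, and in 2, Lyz2 and Xcr1, below, with an adjusted p of 1 for each, while 3.66% of all genes did not overlap in the higher and 3.68% in the lower direction. Marco, counted among the 5, had 7, 2 and 8 counts against 0, and the 2 counts are under the floor, so its groups are not separated at this depth. Cd163, for example, was at 7.04 to 10.1 against 3.94 to 6.14 CPM.

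The comparison of colitic genotypes asks how far myeloid deletion of STING alters these genes in colitis. Cd163 and Mrc1 were lower in colitic Tmem173iΔmye mice, 2 of the 42 genes, and 0 were called higher, against 1.99% lower and 0.822% higher of all genes tested. At an unadjusted p with the same fold, 7 were lower and 1, Xcr1, was higher, against 6.0% and 4.40% of all genes. DESeq2 called 5 lower and Xcr1 higher, against 3.96% and 2.75%. The median log2 difference of the 42 genes was -0.60, that of all genes 0.02, and 31 members were below 0. In 14 members every Tmem173iΔmye library was below every Tmem173fl/fl library and in 0 members above, while 14.8% of all genes did not overlap in the lower direction and 12% in the higher. The 14 were Cd163, Cd14, Mrc1, Msr1, Stab1, Vsig4, Marco, the 3 C1q genes, Apoe, Fcgr2b, Fcgr3 and Clec10a, of which Clec10a alone belongs to the dendritic genes.

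Mrc1 was at 212, 234 and 195 CPM in colitic Tmem173fl/fl and 72.6, 74.5 and 46.2 CPM in colitic Tmem173iΔmye mice, a log2 difference of -1.74 ± 0.22 (edgeR adjusted p 0.0137). Cd163, at 93.2, 129 and 105 against 37.6, 34.5 and 10.1 CPM, differed by -2.0 ± 0.43 (adjusted p 0.0455). The call on Mrc1 was lost without replicate 1 of the Tmem173fl/fl group (adjusted p 0.0684) or replicate 2 of the Tmem173iΔmye group (0.0522). That on Cd163 was lost without replicate 1, 2 or 3 of the Tmem173fl/fl group (0.135, 0.124 and 0.0894) or replicate 2 of the Tmem173iΔmye group (0.117). The call on Cd163 was kept in 6 of 14 alternatives and was also lost with DESeq2 size factors, with limma at either pseudocount and with pancreas genes as a covariate. That on Mrc1 was kept in 11 of 14 and was also lost with limma at a pseudocount of 0.1. The adjusted p ran from 6.11e-09 to 0.0684 for Mrc1 and from 0.000223 to 0.135 for Cd163 over 14 alternatives each, with a lower level in Tmem173iΔmye mice in all.

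Other members did not pass. Clec10a was nearest, at 29.0, 34.5 and 27.5 against 12.7, 16.9 and 7.59 CPM (log2 difference -1.31 ± 0.29, edgeR adjusted p 0.0529). Apoe differed by -1.03 ± 0.26 (adjusted p 0.0720), Fcgr3 by -0.80 ± 0.22 (0.0902), Stab1 by -1.26 ± 0.38 (0.111) and C1qa by -1.08 ± 0.32 (0.114). Marco, at 29.9, 128 and 22.3 against 10.6, 7.03 and 0.304 CPM, differed by -3.35 ± 1.02 (0.117). The 6 genes for Fc receptors, Trem2 and the adaptors lay between -0.80 and -0.18. The core genes Csf1r, Cd68, Lyz2 and Sirpa lay between -0.79 and -0.54, and none of either set was called. The core genes Cx3cr1 and Aif1 lay on the other side, at 0.83 and 0.64, and were not called either. Adgre1, at 24.6 to 33.1 against 23.8 to 38.9 CPM, had a difference of 0.02 ± 0.24.

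The repair and resident genes did not follow Cd163 alike. Gpnmb, at 56.2, 88.3 and 47.7 against 32.3, 29.0 and 53.2 CPM, differed by -0.75 ± 0.30 (edgeR adjusted p 0.214). Spp1 had a difference of -0.25 ± 0.59 (0.857). Folr2 differed by -0.59 ± 0.44 (0.497) and Timd4 by 0.24 ± 0.77 (0.894). Of the resident and repair genes, Cd163 alone was called.

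None of the dendritic cell genes was called between colitic genotypes. Xcr1, at 0.650, 0.899 and 0.681 against 4.06, 3.11 and 0.850 CPM, differed by 1.82 ± 0.58 (edgeR adjusted p 0.128), and replicate 5 alone lay within the Tmem173fl/fl range. Without replicate 5 the difference was 2.24 (adjusted p 0.0312), and over 14 alternatives that refit the genes the adjusted p ran from 0.0310 to 0.357. Clec9a differed by 0.76 ± 0.44 (0.376), Flt3 by -0.06 ± 0.65 (0.974), Siglech by 1.04 ± 0.66 (0.415) and Zbtb46 by -0.72 ± 0.42 (0.375).

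**Figure D2:**
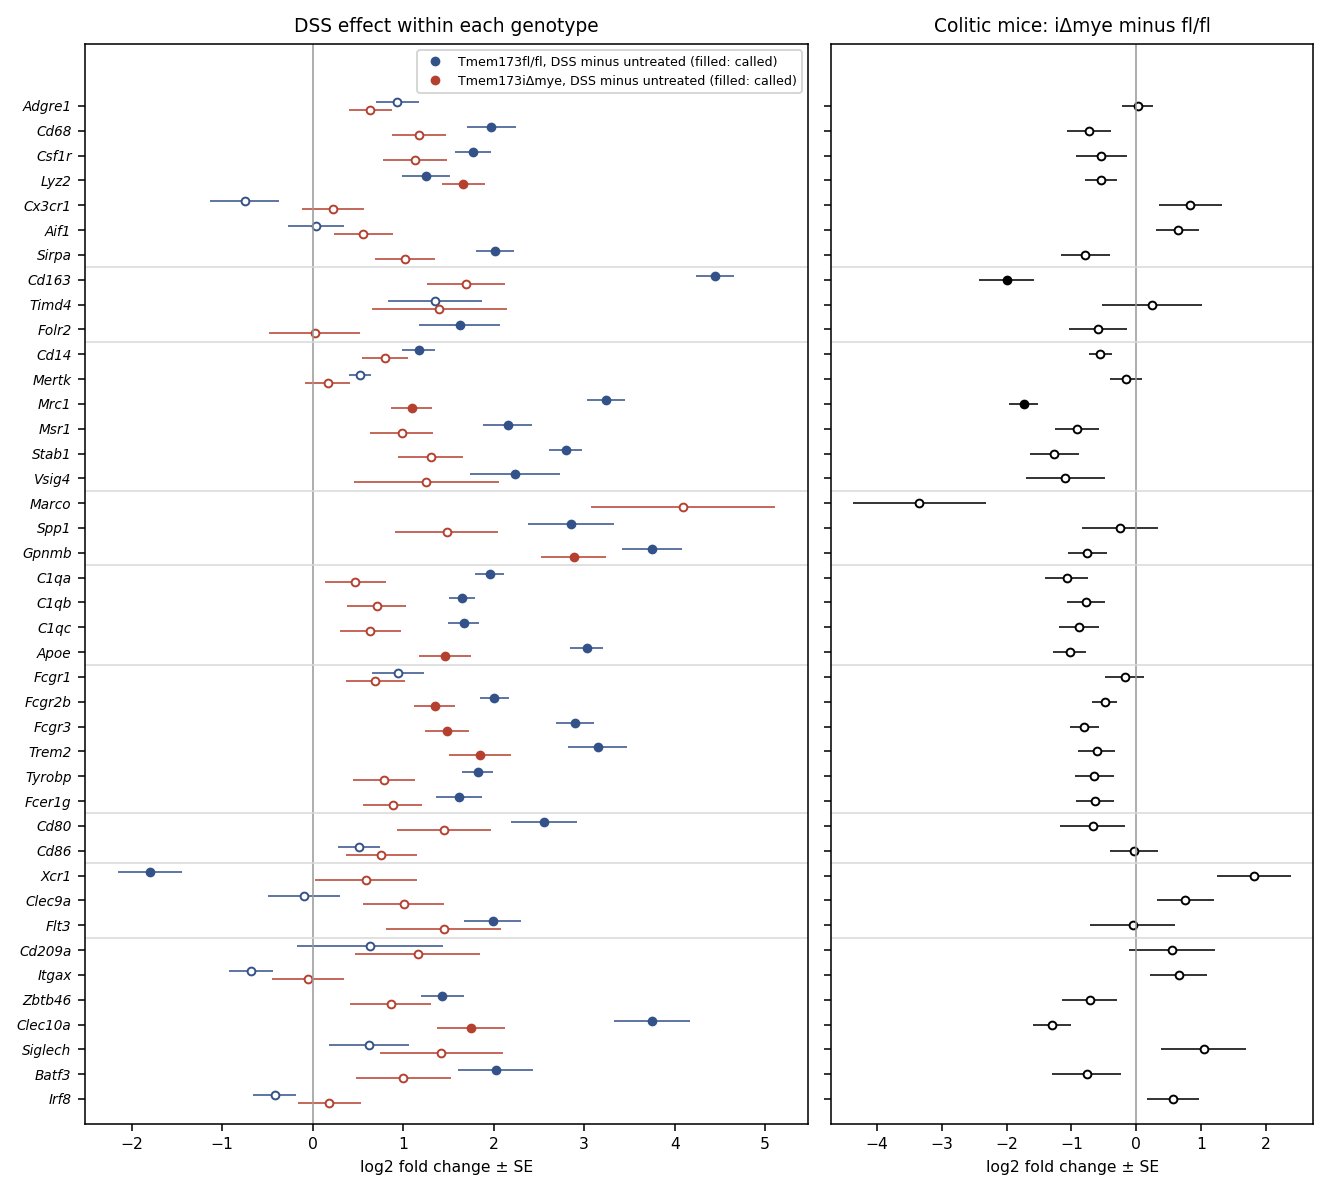
Log2 fold change ± SE of the genes by name, grouped by role between grey lines. On the left is the DSS effect in Tmem173fl/fl (blue) and Tmem173iΔmye (red) mice, and on the right the difference between colitic genotypes, with filled points for called genes. Marco in Tmem173fl/fl mice is not drawn, since it had 0 counts without DSS. Most blue points lie to the right of the red ones, and Cd163 and Mrc1 are filled on the right at -2.0 and -1.74.

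Whether DSS acted differently in the genotypes was tested by an interaction over all 12 libraries. The DSS effect was smaller in Tmem173iΔmye mice for Cd163, Mrc1, Apoe and Fcgr3, so 4 of the 42 genes were called lower and 0 higher, against 1.61% lower and 0.934% higher of all genes tested. At an unadjusted p with the same fold, 11 were lower and 1, Xcr1, was higher, against 6.35% and 5.05% of all genes. DESeq2 called 8 lower and Xcr1 higher, against 3.58% and 2.08%. The median interaction was -0.71 over the 42 genes and 0.04 over all genes, with 31 members below 0.

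Cd163 had an interaction of -2.69 ± 0.52 (edgeR adjusted p 0.0167), from a DSS effect of 4.45 in Tmem173fl/fl and 1.69 in Tmem173iΔmye mice. Mrc1 had -2.08 ± 0.31 (adjusted p 0.00590), from 3.24 and 1.10. Apoe had -1.49 ± 0.35 (adjusted p 0.0387), from 3.03 and 1.46, and Fcgr3 -1.34 ± 0.32 (adjusted p 0.0415), from 2.90 and 1.48. All 4 rose in both genotypes or, for Cd163, had a rise that in the main fit passed only in Tmem173fl/fl mice.

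The call on Mrc1 held in all 20 alternatives, with an adjusted p of 2.13e-07 to 0.0283, and that on Cd163 in 18, with 4.97e-05 to 0.0524. Cd163 lost it without replicate 1 of the untreated Tmem173fl/fl group and by limma on log2(FPKM + 0.1), with an adjusted p of 0.0524 in each. The calls on Apoe and Fcgr3 held in 7 and 6 of 20. Leaving out 1 library kept the call on Apoe in 3 of 12 fits and that on Fcgr3 in 2 of 12. Both held without replicate 1 of the untreated or of the colitic Tmem173iΔmye group, and Apoe also when replicate 3 of colitic Tmem173fl/fl was omitted, while the other libraries left out gave an adjusted p of 0.0538 to 0.0988.

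Xcr1 had the largest positive interaction, 2.46 ± 0.70, which did not pass (edgeR adjusted p 0.0799). It fell in Tmem173fl/fl mice, with a change of -1.8, and its change in Tmem173iΔmye mice was 0.59. Without replicate 5 of the colitic Tmem173iΔmye group it was 2.87 (adjusted p 0.0148), and over 20 alternatives the adjusted p ran from 0.0148 to 0.192. Gpnmb and Spp1 had interactions of -0.79 ± 0.51 and -1.31 ± 0.84 (adjusted p 0.441 and 0.440). Intervals of this width do not show that these genes rose alike.

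Ratios of members within a library do not depend on the total. Cd163 over Csf1r was 0.0775 to 0.144 in untreated Tmem173fl/fl, 0.155 to 0.210 in untreated Tmem173iΔmye, 0.634 to 0.849 in colitic Tmem173fl/fl and 0.202 to 0.336 in colitic Tmem173iΔmye libraries. The colitic genotypes differed by -1.52 on the log2 scale without overlap (exact two-sided permutation p 0.1, the smallest that 3 against 3 allow). For the other resident genes the colitic genotypes overlapped, with Timd4 over Csf1r at 0.00995 to 0.0179 and 0.00847 to 0.0327 and Folr2 over Csf1r at 0.00685 to 0.0159 and 0.00606 to 0.0266. Gpnmb over Csf1r was 0.382 to 0.456 in colitic Tmem173fl/fl and 0.193 to 1.06 in colitic Tmem173iΔmye libraries, with replicate 5 on top. Spp1 over Csf1r was 0.0438 to 0.161 and 0.0503 to 0.536, again with replicate 5 on top.

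Xcr1 over Zbtb46 was 0.5 to 1.0 in untreated and 0.0561 to 0.0931 in colitic Tmem173fl/fl libraries, but 0.395 to 0.569 in untreated and 0.246 to 0.694 in colitic Tmem173iΔmye libraries. Clec9a over Zbtb46 was 0.142 to 0.279 in colitic Tmem173fl/fl and 0.493 to 0.722 in colitic Tmem173iΔmye libraries. For both ratios the colitic genotypes did not overlap, with log2 differences of 2.47 and 1.63 (exact permutation p 0.1 each). Zbtb46 itself differed by -0.72 between them, Clec9a by 0.76 and Xcr1 by 1.82, none of them called. The ratios therefore do not show a change of the upper gene alone. All 7 endothelial genes were likewise below 0 in this comparison, and the cells behind the Zbtb46 counts were not tested. Flt3 over Zbtb46 overlapped, at 0.575 to 1.13 and 0.456 to 1.61. In all 34 such comparisons were tested, and the lowest p adjusted over them was 0.34, so none could pass.

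**Figure D3:**
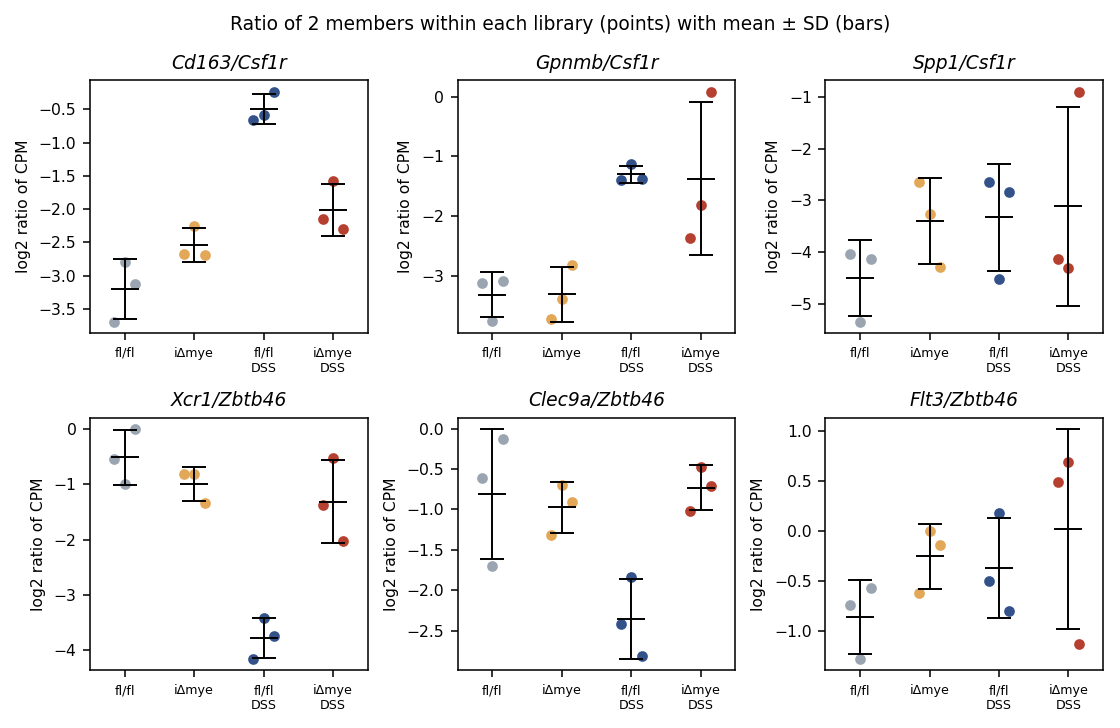
Log2 ratio of the CPM of 2 genes within each library, for 3 macrophage genes over Csf1r and 3 dendritic genes over Zbtb46. Points are libraries and bars the mean ± SD of 3. Cd163 over Csf1r in colitic Tmem173iΔmye libraries lies below, and Xcr1 and Clec9a over Zbtb46 above, all colitic Tmem173fl/fl libraries.

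Genes that act with the members were read from lists. Of 12 ligands and partners, 6 rose in colitic Tmem173fl/fl mice, among them the Csf1r ligands Csf1 and Il34 (log2 change 1.48 and 1.91), Ccl2, which draws monocytes (4.22), and the Mertk ligand Pros1 (2.28). In Tmem173iΔmye mice 3 rose, Il34, Pros1 and Ccl2. The Flt3 ligand Flt3l and the Xcr1 ligand Xcl1 did not pass in either. Ccl2 was at 57.1, 38.6 and 20.5 CPM in colitic Tmem173fl/fl and 10.3, 9.27 and 8.5 CPM in colitic Tmem173iΔmye mice, a difference of -2.06 ± 0.35 (edgeR adjusted p 0.0266).

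Of 18 further macrophage genes, 12 rose and 1 fell in colitic Tmem173fl/fl mice, and 2 rose in Tmem173iΔmye mice. The factors Spi1 (PU.1) and Maf rose by 1.97 and 1.85 in Tmem173fl/fl mice. Pf4, a chemokine of platelets and resident macrophages, was at 40.5, 57.5 and 33.6 CPM in colitic Tmem173fl/fl and 6.13, 6.91 and 5.58 CPM in colitic Tmem173iΔmye mice (difference -2.83 ± 0.26, edgeR adjusted p 0.00766), the only 1 of the 18 called between colitic genotypes. Lyve1, which lymphatic vessels also make, differed by -1.03 ± 0.25 (adjusted p 0.0654).

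Of 16 further dendritic cell genes, 5 rose and 3 fell in colitic Tmem173fl/fl mice. Those that rose included Ccr7, Fscn1 and Ccl22 of mature dendritic cells (log2 change 2.72, 3.02 and 3.12), and those that fell were Ly75, Tlr3 and Dpp4. The latter changed by -1.56, -1.37 and -1.48, while 6 of 7 colon epithelium genes also fell. The cells behind their counts were not tested. In Tmem173iΔmye mice 1 rose, Ccl22 (2.89 ± 0.58, edgeR adjusted p 0.0319). Of 11 monocyte genes tested, 7 rose and 1 fell in Tmem173fl/fl mice, and 2 rose in Tmem173iΔmye mice. Between colitic genotypes Itgam and Ifitm6 were lower by 1.03 and 3.10 on the log2 scale and Plac8 was higher by 1.27, while Ccr2 and Ly6c2 did not pass (0.56 and -0.24).

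Markers of other cells moved with these groups. In colitic Tmem173fl/fl mice 7 of 7 endothelial and 6 of 6 fibroblast genes rose, and 6 of 7 colon epithelium genes fell. Summed levels of the endothelial genes were 349.6 to 491 CPM in colitic Tmem173fl/fl and 154 to 264 CPM in colitic Tmem173iΔmye libraries, against 88.6 to 116 CPM without DSS. The fibroblast sum was 7970 to 10150 and 2298 to 3368 CPM, against 1142 to 1455 CPM without DSS. Between colitic genotypes 4 of 7 endothelial and 5 of 6 fibroblast genes were lower, and 1 of 7 epithelial genes was higher, the epithelial sum being 4901 to 7854 and 8538 to 11360 CPM. In the interaction 3 of 7 endothelial and 4 of 6 fibroblast genes were lower and 2 of 7 epithelial genes higher, beside the 4 lower among the 42. Mrc1, Stab1 and Lyve1 are known in some endothelial cells. No defining endothelial, fibroblast or epithelial marker was at 0 in any library.

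Neutrophil genes, which share Lyz2, Fcgr3, Fcer1g and Tyrobp with macrophages, also moved, with 10 of 11 tested rising in Tmem173fl/fl mice and 6 in Tmem173iΔmye mice. Between the colitic genotypes 7 of them were lower in Tmem173iΔmye. Their sum was 470.0 to 784 CPM and 205 to 317 CPM in the colitic groups. B cell genes, which share Irf8 and Fcgr2b, did not pass between colitic genotypes, but their sum ran from 36.8 to 417 CPM in colitic Tmem173iΔmye libraries, highest in replicate 1, the library with the highest level of 31 members. Pancreas genes summed to 11460, 128 and 222 CPM in replicates 1, 2 and 5 of that group and to 9187, 4729 and 607 CPM in colitic Tmem173fl/fl libraries. With pancreas genes as a covariate the calls on Cd163 between colitic genotypes and on Apoe and Fcgr3 in the interaction were lost, while both calls on Mrc1 were kept. The part of the endothelial, fibroblast, epithelial, neutrophil and B cells in the levels of the 42 genes was not tested.

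**Figure D4:**
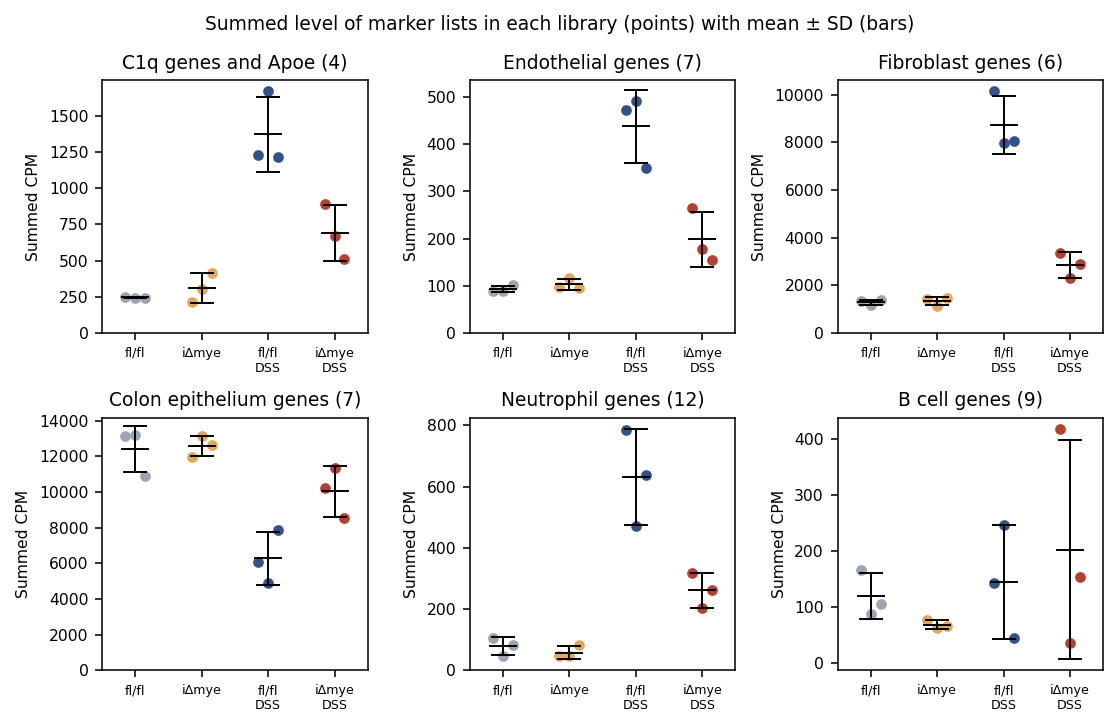
Summed CPM of 6 gene lists in each library (points) with the mean ± SD of 3 (bars). The C1q genes with Apoe, the endothelial, the fibroblast and the neutrophil genes are lower in all colitic Tmem173iΔmye than in all colitic Tmem173fl/fl libraries, and the epithelial genes are higher. B cell genes spread from 36.8 to 417 CPM among colitic Tmem173iΔmye libraries.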

How the data were processed

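Total colon RNA was extracted with TRIzol, purified with lithium chloride and made into polyA libraries (NEBNext Ultra RNA kit), 1 per mouse. Per the labels, reads were handled with CASAVA 1.8, fastp, HISAT2 2.0.5, featureCounts 1.5.0-p3 and DESeq2 1.20.0 on GRCm38, and the use of strand was not given in the sources used here. The authors deposited whole-number read counts per gene for each library. The authors also deposited FPKM values, which are counts scaled by gene length and library depth. The same table holds the authors' fold changes, p-values and group means, which were not used.

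Groups came from the sample titles. From 54532 genes, the 24102 that reached 0.1 FPKM in 3 or more libraries went into edgeR 4.0.16 (TMM, glmQLFit and glmQLFTest, R 4.3.3). Each fit held the groups of its comparison alone, and that of the interaction held 12 libraries. A call needed a Benjamini-Hochberg adjusted p under 0.05 over all genes tested and a log2 change of 1 or more in size. SE is the log2 change divided by the square root of F. The floor was 3 counts of a gene in a library and covers counting error only. Each replicate is 1 library, and p-values measure the spread between these libraries. The scripts were tested on simulated counts of 24102 genes, of which 100 changed by 2 and 100 by 3 on the log2 scale. For DSS in Tmem173fl/fl mice 90% and 98% of these were recovered, and 26 unchanged genes were called. Between colitic genotypes 77% and 95% were recovered, and 20 unchanged genes were called.

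The 42 genes and all lists were chosen with earlier results of these data known. The rule names all 42, of which 1 is not reported here. Values per library were given for the contrasted genes, members called between colitic genotypes or in the interaction, and the 5 largest called changes of each DSS comparison, and the other members by role. Alternatives were no filter, DESeq2 size factors, DESeq2 1.42.0, limma 3.58.1 on log2(FPKM + 0.1) or log2(FPKM + 1), other thresholds, 1 fit over 12 libraries, a block for the replicate number and omission of single libraries. Leaving out the 3 libraries with Xist reads and a covariate of pancreas genes were chosen after seeing the data. Exon overlaps were read from GENCODE M21 and promoters from RefSeq, and 32 of the 42 members had a promoter entry.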

Additional observations from a re-analysis of the deposited data

Results flagged for a closer look

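For 4 of the 42 genes the effect of DSS differed between the genotypes by the interaction test. The DSS effect in Tmem173iΔmye minus that in Tmem173fl/fl mice was -2.69 for Cd163, -2.08 for Mrc1, -1.49 for Apoe and -1.34 for Fcgr3 (log2, with edgeR adjusted p of 0.0167, 0.00590, 0.0387 and 0.0415 in that order). The calls on Apoe and Fcgr3 were kept in 7 and 6 of 20 alternatives, and both were lost with the replicate block, with the pancreas covariate and without the 3 libraries with Xist reads.

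The same test called 18 genes of the companion lists, 13 lower and 5 higher, beside 1.61% lower and 0.934% higher of all genes tested. These lists were chosen with earlier results of these data known. Of these, 9 come from the lists of immune cell genes and of ligands and partners. The interaction was -3.50 for Pf4, -2.27 for Ccl2 and -1.06 for the Mertk ligand Pros1. Among monocyte genes it was -3.59 for Ifitm6, -1.66 for the coagulation factor gene F13a1, -1.31 for the integrin gene Itgam and 1.34 for Plac8. The dendritic list gave 1.70 for the endocytic receptor Ly75 and 1.23 for the RNA sensor Tlr3. Plac8, Ly75 and Tlr3 fell in colitic Tmem173fl/fl mice and had changes of -0.11, 0.07 and -0.21 in Tmem173iΔmye mice. Of the 7 epithelial genes, 6 also fell in colitic Tmem173fl/fl mice and 6 had an interaction above 0, with Car1 going the other way in both. Whether the counts of Plac8, Ly75 and Tlr3 come from immune or epithelial cells was not tested.

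The other 9 mark endothelium, fibroblasts and epithelium. The interaction was -1.71 for Tie1, -1.70 for Cdh5 and -1.30 for Esam among 7 endothelial genes. Of 6 fibroblast genes it was -1.91 for Dcn, -1.78 for Col3a1, -1.72 for Col1a1 and -1.36 for Col1a2. Of 7 epithelial genes it was 1.86 for the chloride exchanger Slc26a3 and 1.2 for the cadherin Cdh1. The part of these cells in the interactions of the 42 genes was not tested.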

How the results depend on the processing

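For DSS in Tmem173fl/fl mice, 25 to 30 of the 30 calls were kept under every alternative run, and limma on log2(FPKM + 1) called 0 members lower. That fit lost Folr2, Vsig4, Xcr1, Flt3 and Zbtb46 to the fold, the pancreas covariate lost Lyz2, and leaving out 1 library lost Folr2 or Cd14 as given with those genes. For DSS in Tmem173iΔmye mice the 8 members called higher became 19 at an unadjusted p, 15 with no filter, 15 by DESeq2, 0 by limma with either pseudocount, 13 without the 3 libraries with Xist reads (6.39%, 2.25%, 3.30%, 0.124% and 0.236%, and 1.68% of all genes, against 1.48%) and 0 to 20 with 1 library left out (0.166% to 3.95%). Between untreated genotypes 3 were higher and 1 lower at an unadjusted p (0.726% and 0.635% of all genes), and 1 was lower with no filter (0.0799%). Between colitic genotypes the 2 lower calls became 7 at an unadjusted p, 7 with no filter, 1 with DESeq2 size factors, 5 by DESeq2, 0 and 1 by limma with 0.1 and 1, 6 in 1 fit of 12 libraries, 1 with the pancreas covariate (6.0%, 2.49%, 1.79%, 3.96%, 0.224% and 0.896%, 3.65% and 1.24% of all genes, against 1.99%) and 0 to 8 with 1 library left out (0.0913% to 4.60%). Higher calls there were 1 at an unadjusted p, by DESeq2 and in the fit of 12 libraries (4.40%, 2.75% and 2.54%), and 0 to 1 with 1 library left out (0.0207% to 2.01%). The 4 lower calls of the interaction became 11 at an unadjusted p, 8 with no filter, 8 by DESeq2, 1 by limma with 0.1, 2 without Xist libraries, 2 with the pancreas covariate (6.35%, 2.27%, 3.58%, 1.17%, 0.564% and 1.05% of all genes, against 1.61%) and 1 to 7 with 1 library left out (0.730% to 4.23%), and higher calls were 1 at an unadjusted p, with no filter and by DESeq2 (5.05%, 1.42% and 2.08%), and 0 to 1 with 1 library left out (0.373% to 2.94%). The cause of these shifts was not tested, except that leaving out a library leaves fewer samples.

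Same-numbered libraries did not deviate together (correlations of -0.195 to 0.238), so the numbers were not taken as pairs. With a replicate block 21 members were called higher for DSS in Tmem173iΔmye mice (3.42% of all genes) and 4 lower between colitic genotypes (1.97%). In the interaction the block called 1 higher (Xcr1, against 1.11% of all genes) and 4 lower (1.34%), losing Apoe and Fcgr3 and gaining Marco and Spp1.

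Values that changed sign were of members not called. Leaving out 1 library gave -0.92 to 0.43 for Flt3, -1.17 to 0.15 for Spp1 and -0.98 to 0.79 for Timd4 between colitic genotypes. It gave -0.36 to 0.12 for Clec9a (DSS, Tmem173fl/fl), -0.17 to 0.33 for Folr2 (DSS, Tmem173iΔmye), -0.32 to 0.28 for Gpnmb and -0.21 to 0.56 for Timd4 (untreated genotypes), and -1.30 to 0.0015 for Flt3 and -1.08 to 0.61 for Timd4 (interaction). Between colitic genotypes the block gave 0.12 for Flt3, the pancreas covariate 0.47, and limma with 0.1 gave -0.20 for Timd4. The interaction of Timd4 was -0.38 and -0.0347 by limma with 0.1 and 1 and -0.0431 without Xist libraries, limma with 0.1 gave -0.007 for Folr2 (DSS, Tmem173iΔmye), and Gpnmb was -0.11 between untreated genotypes without Xist libraries. Timd4, Folr2, Vsig4, Xcr1, Clec9a and Cd209a rest on low counts.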
